A study of Mus musculus with 5 samples.

Results

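B cells of the mouse heart were chosen from 5 single-cell libraries by their transcripts, and 1081 of the 38337 cells kept met the rule. A barcode was kept when at most 10% of its UMIs (unique molecular identifiers, counts of captured RNA molecules) came from mitochondrial genes, which left 38337 of 47319 barcodes. Members had at least 3 UMIs over Cd79a, Cd79b and Ms4a1 with at least 1 of Cd79a or Ms4a1, at most 1 over Cd3d, Cd3e and Cd3g, at most 2 over C1qa, C1qb and C1qc, and 0 of Cdh5 and Pdgfra. The hearts came from 4 control mice (Ctla4+/+Pdcd1-/-) in libraries 1 and 2, and from 10 disease mice (Ctla4+/-Pdcd1-/-), a model of the myocarditis seen under immune checkpoint inhibitors, in libraries 3, 4 and 5. Both groups lacked Pdcd1, so the contrast is 1 against 2 intact copies of Ctla4 without PD-1, and no group had both genes intact. The age and sex of the mice are not given in the sources used here. Digested hearts were pooled and sorted for nucleated, viable cells (DRAQ5 positive, DAPI negative), so libraries and not mice are the replicates and p-values measure the spread between libraries. The genotype labels of some libraries write the second gene as Pdcd2 or Pdcd3, and the design text, which is followed here, writes Pdcd1 throughout.

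B cells carry a membrane antibody as antigen receptor, which signals through the CD79A and CD79B chains, and they present peptides on MHC class II to helper T cells. Recirculating follicular B cells are naive, co-express IgM and IgD and follow CCR7 and CXCR5 into lymphoid tissue, while plasma cells lose surface markers such as CD20 (Ms4a1) and secrete antibody. The adult heart holds a resident and circulating pool of B cells, and CTLA-4 and PD-1 limit T cells through ligands that B cells can display, CD80 and CD86 for CTLA-4 and CD274 and PDCD1LG2 for PD-1.

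The libraries held 117 and 255 B cells in controls 1 and 2, and 146, 380 and 183 in disease libraries 3, 4 and 5. A B cell held 3076 and 2783 UMIs at the median in controls against 2604, 2296 and 2652 in disease, and summed B cell counts ran from 411614 to 948153 UMIs per library. No B cell barcode occurred as a B cell in more than 1 library, although 1208 of 46099 distinct barcodes of the whole series occurred in at least 2. Scrublet called 8 of the B cells doublets. Just inside the threshold, 17 members had 3 UMIs over Cd79a, Cd79b and Ms4a1, and 12 barcodes that met every other condition had 2; Fcmr, the receptor for IgM, was seen in 64.7% of the former and 25% of the latter. The median member had 17 such UMIs.

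The label was checked against genes outside the rule, as a description. Ly6d, a surface marker of the B lineage, had a UMI in 79.2% of members, Fcmr in 80.6%, Ebf1, a transcription factor that specifies B cells, in 94.8%, and Ighm, the IgM heavy chain, in 78.9%. After each cell was thinned to 1000 UMIs, Ly6d was found in 48 to 69.3% of B cells over the libraries, against at most 0.143% of T cells, macrophages or endothelial cells, and Fcmr in 48.6 to 53.7% against at most 0.0305%. The other 2 are less specific here: thinned, Ebf1 was found in 66.7 to 77.9% of B cells and 26% of endothelial cells, and Ighm in 39.5 to 56.6% of B cells and 18.7% of macrophages. Among genes found in at least 25% of B cells, the largest folds over all remaining cells of each library were those of Ly6d, Igkc and Fcmr, aside from the genes of the rule, whose folds the selection fixed. For Ly6d the log2 fold lay between 6.36 and 7.09 over the 5 libraries.

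Cells of other types left traces. In 8 members at least 50 UMIs came from the marker list of 1 other type: 3 in control 1, 1 in control 2, 3 in disease 4, 1 in disease 5 and 0 in disease 3. In control 1 one of them held 1141 fibroblast-list UMIs of 11927 with 6 Cd79a UMIs, and another held 228 natural killer cell UMIs of 6682 with 11 Cd79a UMIs. In disease 4 one held 341 macrophage-list UMIs of 10935. Scrublet called 3 of the 8. Over all B cells of a library, the 9 fibroblast markers summed to 3892 and 1303 CPM (counts scaled to a common library size) in controls against 888, 652 and 821 CPM in disease, with Pdgfra at 0 by the rule. The 9 natural killer markers summed to 722 and 2.78 against 20.9, 512 and 80 CPM, with Eomes at 0. The 13 macrophage markers summed to 615 and 192 against 371, 1188 and 382 CPM.

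The first comparison was whether B cells made up a different share of the heart. They made up 1.26% (95% Wilson interval 1.05 to 1.51) of the cells of control 1, 4.56% (4.05 to 5.14) of control 2, 2.51% (2.14 to 2.94) of disease 3, 3.81% (3.46 to 4.21) of disease 4 and 2.38% (2.06 to 2.74) of disease 5. The controls held both the lowest and the highest share, and every disease library lay between them. The mean was 2.91% ± 2.33 (SD, n = 2) in controls and 2.90% ± 0.793 (SD, n = 3) in disease (exact permutation test, two-sided, p = 1). The difference was -1.66 percentage points without control 1 and 1.64 without control 2, and also turned without disease 3 (0.185) or disease 5 (0.249), so its sign rests on single libraries. The intervals cover counting error only. The smallest p that 2 against 3 libraries allow is 0.1, so no test of this kind could pass 0.05.

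Among leukocytes the disease libraries again lay between the controls. B cells were 5.77 and 28.2% of leukocytes in controls against 16.6, 7.97 and 11.9% in disease (means 17.0% ± 15.9, SD, n = 2, and 12.2% ± 4.35, SD, n = 3; exact permutation p = 0.7). That difference of -4.85 percentage points was -16.1 without control 1 and 6.39 without control 2. For every 100 T cells, chosen by a rule of the same form, there were 22.7 and 290 B cells in controls against 114, 18.1 and 34.8 in disease (exact permutation p = 0.6 on the log2 ratio). T cells numbered 516 and 88 in controls against 128, 2104 and 526 in disease, a wider range than that of the B cells. By this ratio disease 4 lay below both controls, and B cells outnumbered T cells in control 2 and disease 3.

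**Figure D1:**
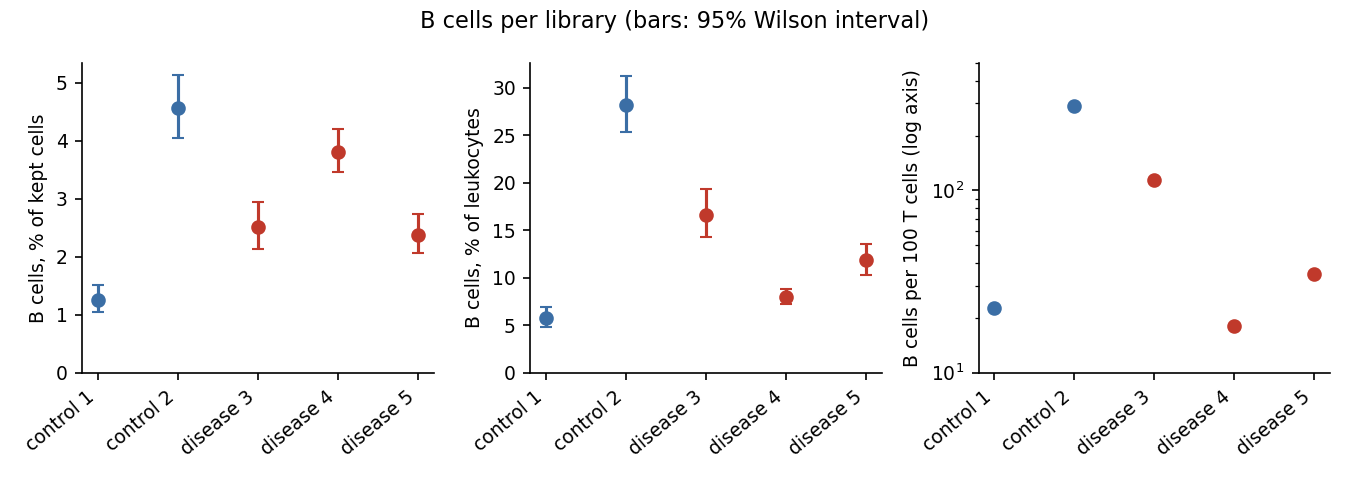
B cells in each of the 5 libraries as a percent of kept cells, as a percent of leukocytes (bars are 95% Wilson intervals) and per 100 T cells on a log axis. Control 1 (1.26% of cells) and control 2 (4.56%) lie on either side of the 3 disease libraries (2.38 to 3.81%).

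Few B cells of either group met the definition of a switched cell, and their variable segments were many. Ighm or Ighd UMIs were found in 84.6 and 85.1% of B cells of the controls and in 91.1, 85.3 and 94.0% of B cells of the disease libraries, before thinning and with the background of Ighm given above. Cells with a switched isotype, defined by at least 3 UMIs of IgG, IgA or IgE constant genes and more of these than of Ighm and Ighd, numbered 1 of 117 and 0 of 255 in controls against 1 of 146, 3 of 380 and 0 of 183 in the disease libraries (exact permutation p = 1 on the shares). At 3 counts as its limit, a count of 0 allows a share of up to 1.18% in control 2 and 1.64% in disease 5 for cells that meet this UMI definition, which misses switched cells with fewer captured UMIs. Cycling cells, with 2 or more UMIs summed from Mki67, Birc5, Top2a, Ccnb2 and Cdk1, numbered 1 and 0 against 1, 2 and 1. Of 13 germinal centre genes only Neil1, a DNA glycosylase, had enough counts to be tested.

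Variable segments were spread over many genes. The Ighv gene of a cell could be called in 102 and 210 B cells of the controls and used 47 and 64 genes, and in 131, 326 and 158 cells of the disease libraries, where it used 54, 73 and 60 genes. No Ighv gene took more than 7.84% of a library, and Ighv1-26 was the most used in 4 of 5 libraries, tied with another in disease 5. The chance that 2 cells of a library shared the Ighv gene was 2.35 and 2.29% in controls against 2.01, 2.35 and 1.89% in disease, and the groups overlapped. No pair of heavy and light segment genes was found in more than 3 cells of a library. With segment genes alone, and no junction sequences, clones cannot be told from unrelated cells with the same genes.

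Kappa and lambda light chains could be compared by their constant genes in few cells. Lambda cells made up 36.0% of 25 called cells and 23.2% of 69 in controls against 18.6% of 43, 38.2% of 110 and 24.5% of 49 in the disease libraries (exact permutation p = 0.8). From variable segments instead, which called 107 and 243 and then 141, 354 and 173 cells, the lambda share was 5.61 and 3.70% against 2.84, 7.06 and 4.62% (exact permutation p = 1). The groups overlapped by either measure, and the level of the share depended on the genes used to call it.

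Antibody-secreting cells were rare, and in 2 libraries a single cell held nearly all Jchain and Igha transcripts of the B cells. Jchain, the joining chain of secreted IgA and IgM, had 4 and 0 UMIs in the B cells of the controls against 669, 1503 and 14 in disease. Of these, 669 of 669 in disease 3 and 1502 of 1503 in disease 4 lay in 1 cell each. The cell of disease 3 had 32957 UMIs, of which 26.4% were immunoglobulin or Jchain transcripts, with 401 UMIs of Igha, the IgA heavy chain, 148 of Mzb1, a chaperone for antibody assembly, 18 of Xbp1, the factor behind the secretory programme, and 0 of Ms4a1. Of the UMIs found in the B cells of disease 3, that cell held all 35 of Tnfrsf17, the plasma cell survival receptor BCMA, all 19 of Mki67, a proliferation marker, and 17 of the 18 of Ctla4. The cell of disease 4 had 31143 UMIs, 75.9% of them immunoglobulin or Jchain, with 844 of Igha, 121 of Mzb1 and 0 of Ms4a1. Mzb1 was not confined to these cells, which held 148 of 256 and 121 of 367 of its UMIs in B cells, while of Xbp1 they held 18 of 19 and 8 of 12. B cells of the controls had 24 and 25 Xbp1 UMIs and those of disease 5 had 2. Each of the 2 Jchain-rich cells expressed mainly 1 heavy and 1 kappa segment: Ighv1-39 with 96.5% of Ighv UMIs and Igkv6-23 with 99.8% of Igkv UMIs in disease 3, and Ighv3-6 with 99.6% and Igkv6-15 with 99.8% in disease 4. Beside 12325 Igkv UMIs the cell of disease 4 had 344 Iglv UMIs, 334 of them of Iglv1, and beside Igha it had 15 of Ighg2c. In control 1 the highest cell had 4 Jchain UMIs and 17 of Igha beside 32 of Ms4a1, and in disease 5 the highest had 14 of Jchain and 18 of Ms4a1. Among all kept barcodes of the series, these were the only 2 with at least 50 Jchain UMIs, 0 in the controls. At 1 cell in a library no difference between the groups can be read from them. Scrublet called neither a doublet.

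**Figure D2:**
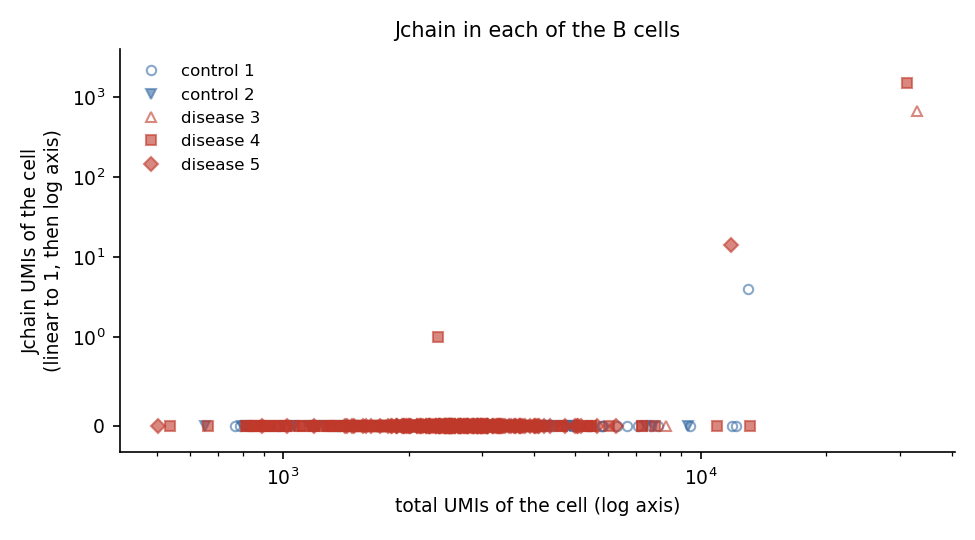
Jchain UMIs of each B cell (linear to 1, then a log axis) against the cell's total UMIs (log axis), with 1 symbol per library. One cell of disease 3 (669 UMIs) and one of disease 4 (1502 UMIs) stand apart with the highest total UMIs (32957 and 31143), and nearly all other cells lie at 0.

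These cells moved the summed values of several genes. Igkc, the kappa constant chain, stood at 842 and 833 CPM in controls against 1950, 1740 and 1120 in disease, at a log2 fold change of 0.94 (SE 0.24, quasi-likelihood adjusted p = 0.0648 by edgeR). Without the cells with at least 3 Jchain UMIs it was 0.34 (edgeR adjusted p = 0.271). Mzb1 stood at 300 and 203 against 652, 405 and 335 CPM, a log2 difference of 0.89 (SE 0.33, adjusted p by edgeR 0.167), or of 0.26 without those cells. Ctla4, the targeted gene, had 2 and 0 UMIs in B cells of the controls against 18, 37 and 0 in disease, of which 17 and 14 lay in the Jchain-rich cells, and Pdcd1, targeted in both groups, had 3 and 0 against 0, 9 and 1. The targeted genes therefore do not check the labels in B cells.

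Surface proteins that mark naive and activated states were compared as the share of cells with a UMI, after each cell was thinned to 1000 UMIs. Of 20 genes, 5 reached the smallest p the design allows (exact permutation p = 0.1, Benjamini-Hochberg adjusted p = 0.4), so none passed. Ighd was found in 15.8 and 20.8% of B cells in controls against 22.8, 27.1 and 26% in disease. Cd83, a protein that stabilises MHC class II and CD86 on activated B cells, was found in 20.2 and 21.6% against 12.4, 3.6 and 13.8%, lowest in disease 4. Ccr7 was found in 57 and 49.6% against 59.3, 58.2 and 58%, and Cr2, the complement receptor CD21, in 4.39 and 4.40% against 4.83, 4.99 and 5.52%. Without thinning, the groups stayed apart for Cd83 (48.7 and 41.2% against 40.4, 6.58 and 23.5%) and overlapped for the others named, Ighd at 43.6 and 47.5% against 48.6, 46.1 and 48.6%, Ccr7 at 88.0 and 72.5% against 80.8, 77.4 and 78.7% and Cr2 at 12.0 and 12.9% against 9.59, 9.21 and 12.6%. Fcer2a, the low-affinity IgE receptor CD23 of follicular cells, was found in 28.1 and 26% against 26.2, 23 and 23.8% (exact permutation p = 0.3). As background, endothelial cells of 2880 to 3539 median UMIs per library, thinned in the same way, had a UMI of Ighd in 0.0179%, of Ccr7 in 0.0536%, of Cd83 in 0.589% and of Fcer2a in 0.0536%.

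Costimulators that engage CTLA-4 were measured too. Cd86 was found in 13.2 and 12.4% of thinned B cells in controls against 11.7, 14.4 and 15.5% in disease, and Cd80 in 0 and 0 against 0.690, 0.277 and 0%, which is below its share in T cells (2.86%) and macrophages (2.31%). Cd274, the PD-1 ligand, was found in 4.39 and 2.00% against 1.38, 3.32 and 3.87%, below the 10.7% of endothelial cells. None of these 3 separated the groups.

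Gene expression in the B cells was compared next. Summed over B cells of a library, 4968 genes had enough counts to be tested with edgeR's quasi-likelihood test. The adjusted p was under 0.05 for 419 genes (8.43% of those tested), of which 410 (8.25%) were lower and 9 (0.181%) higher in disease. Beside this, the median number of genes detected per B cell was 1105 and 1050 in controls against 880.5, 797.5 and 891 in disease, lower in every disease library, and its part in the calls was not tested. The groups did not overlap for 41.1% of genes, 18.7% higher and 22.4% lower, and the median log2 fold change of all genes was 0.04. The log2 fold change was above 0 for 52.4% of genes. The lower calls numbered 173 without control 1, 52 without control 2 and 134 without disease 5, and the higher calls 1, 0 and 3. Without the 8 members rich in another type's markers there were 4 higher and 406 lower.

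The 10 largest falls were in genes of varied function. H2afj, a histone H2A variant, had 59 and 99 UMIs in B cells of the controls against 1, 1 and 0 in disease, a ratio of summed counts per total of 132 (95% counting interval 35.9 to 1100). Rnaset2a, a secreted ribonuclease, had 61 and 78 UMIs against 0, 0 and 1, a ratio of 232 (41.0 to 9240). It shares most of its sequence with Rnaset2b, which stood at 76.1 and 52.4 CPM against 2.55, 6.63 and 4.19 (edgeR adjusted p = 0.00576), and reads of this pair may have been split in counting. Both disease counts sit at the floor of detection in every library, so the size of the fall is known only within those wide intervals.

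Abundant genes fell as well. Pfn1, which encodes the actin monomer binder profilin-1, stood at 1530 and 1400 CPM in controls against 78.9, 55.2 and 107 CPM in disease (log2 fold change -4.20, SE 0.28, edgeR adjusted p = 0.00172). Pgls, an enzyme of the pentose phosphate pathway, stood at 209 and 157 against 5.09, 6.63 and 8.38 CPM (-4.71, SE 0.32, edgeR adjusted p = 0.00172). Cox5a, a subunit of cytochrome c oxidase, stood at 295 and 308 against 10.2, 12.1 and 25.1 CPM (edgeR adjusted p = 0.00183). In each of these the lowest control lay more than 10 times above the highest disease library. The other genes of this set were Ndfip1, an adaptor of ubiquitin ligases (log2 fold change -4.67), Snrpf, a core protein of the spliceosome (-4.47), Mrps24, a protein of the mitochondrial ribosome (-4.37), Cmtm7, a membrane protein linked to antigen receptor signalling (-4.14), and Scand1, a zinc finger protein partner (-3.96). All 10 kept an edgeR or DESeq2 adjusted p under 0.05 in 16 of 16 alternatives.

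Rises were small, and 7 of the 9 met the conditions for named genes given below. Gm42031, a predicted gene, stood at 29.5 and 26.2 CPM in controls against 107, 78.4 and 96.4 CPM in disease (log2 fold change 1.74, SE 0.29, edgeR adjusted p = 0.0146). Akr1a1, an aldehyde reductase, stood at 73.7 and 93.8 against 183, 160 and 153 CPM (0.97, SE 0.23, edgeR adjusted p = 0.0479). Ly6d stood at 970 and 916 against 1290, 1580 and 1630 CPM (0.67, SE 0.16, edgeR adjusted p = 0.0489), and its relative Ly6e at 2500 and 2290 against 3340, 3230 and 3570 CPM (0.50, SE 0.12, edgeR adjusted p = 0.0496). The ribosomal protein genes Rpl39, Fau and Rps24 rose by 0.46, 0.40 and 0.37 on the log2 scale, Fau from 10200 and 9850 to 13000, 14000 and 12600 CPM. Gm42031 was called in 11 of 16 alternatives and lost without control 1, control 2 or disease 5 (edgeR adjusted p = 0.0731, 0.16 and 0.0638). Each of the other 6 was called in at most 7 of 16, and Ly6d was lost without control 1 (edgeR adjusted p = 0.136), control 2 (0.247), disease 4 (0.0623) or disease 5 (0.161).

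The same genes were low in the disease libraries in other cell types. For Pfn1 the log2 fold change was -4.20 in B cells, -4.48 in T cells, -3.60 in macrophages and -3.82 in endothelial cells, and for Pgls -4.71, -4.53, -4.02 and -3.87. H2afj and Rnaset2a had log2 fold changes of -7.16 and -5.18 in T cells, -5.12 and -4.86 in macrophages and -4.69 and -4.70 in endothelial cells. Of the rises, Gm42031 had 1.74 in B cells and 2.47, 0.91 and 1.33 in T cells, macrophages and endothelial cells, Akr1a1 had 0.97 and then 0.48, 0.44 and 0.16, and Ly6e had 0.50 and then 0.05, 0.76 and 0.15; for these 3 genes the difference between B and T cells did not pass (edgeR adjusted p = 0.999 each). The 4 cell types come from the same libraries, so these values are not independent of each other. Whether control and disease libraries were prepared or sequenced together is not given in the sources used here, and a difference between library preparations cannot be told apart from one between the genotypes.

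**Figure D3:**
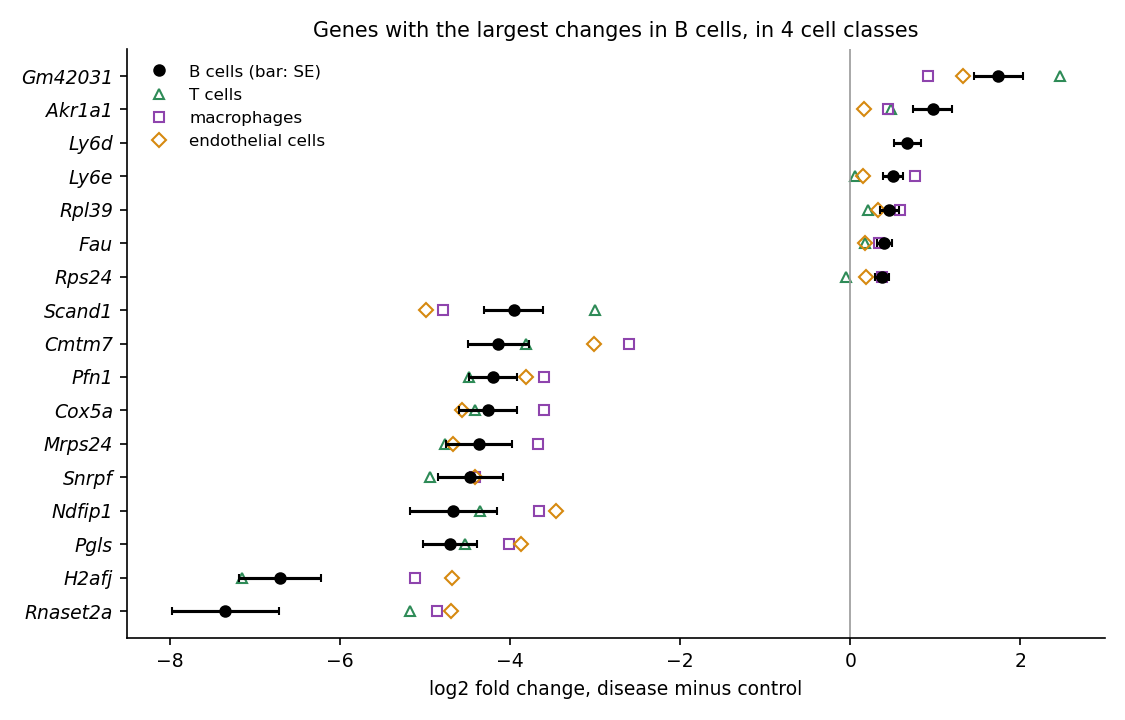
Log2 fold change, disease minus control, of the 7 largest rises and 10 largest falls in B cells (black, with SE) and of the same genes in T cells, macrophages and endothelial cells (open symbols, without error bars). The 10 falls lie below -2 in all 4 types, and Ly6d was tested in B cells alone.

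Most B cell identity genes had a log2 fold change slightly above 0, and 1 of them passed the test. Of 27 tested, 3 chose the cells and are left out of these counts, a choice made after seeing the data. Of the other 24, 23 were above 0 and 1 was called, Ly6d, against 52.4% and 8.43% of all genes. Their median was 0.33, against 0.04 over all genes. In 17 of the 24 every disease library lay above both controls, against 18.7% of all genes. Cd79a, the signalling chain used in the rule, stood at 3670 and 3980 CPM against 4790, 5170 and 4970, a description with no test because its UMIs chose the cells. Ebf1 stood at 1040 and 1320 against 1510, 1660 and 1640 CPM (edgeR adjusted p = 0.155), Blk, a Src family kinase, at 206 and 179 against 267, 283 and 260 CPM (edgeR adjusted p = 0.163), and Ighm at 609 and 775 against 950, 902 and 1040 CPM (edgeR adjusted p = 0.158). Cd22, an inhibitory receptor for sialic acid, stood at 54.0 and 78.7 against 86.6, 130 and 145 CPM (edgeR adjusted p = 0.164). Ralgps2 was the 1 gene below 0, at 233 and 204 against 201, 177 and 212 CPM. Their median exceeded that of all genes by 0.29, and by 0.2 to 0.4 over 16 alternatives, least with the GC trend removed (0.33 against 0.13), where 0 of them were called. With library totals alone as scaling 21 of the 24 were above 0, and under the stricter B cell rule 20 were, with 0 called. The fibroblast markers summed to more in both controls (1303 and 3892 CPM) than in any disease library (at most 888 CPM). With the 8 mixed members left out the median was 0.29 and Ly6d was no longer called (edgeR adjusted p = 0.0671); the part of the remaining fibroblast transcripts was not tested.

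MHC class II genes gave no call, against 8.43% of all genes. All 12 tested of 13 listed had a log2 fold change above 0, against 52.4% of all genes, with a median of 0.32. In 10 of 12 every disease library lay above both controls, against 18.7% of all genes. Cd74, the invariant chain and the most abundant of them, stood at 29400 and 33500 CPM in controls against 35900, 43900 and 36100 CPM in disease (0.30, SE 0.11, edgeR adjusted p = 0.167). The chains H2-Aa, H2-Ab1 and H2-Eb1 had log2 fold changes of 0.31, 0.26 and 0.33 (edgeR adjusted p = 0.165, 0.228 and 0.147). H2-DMb1, a chain of the peptide editor, stood at 56.5 and 58.0 against 81.5, 171 and 77.5 CPM, and Ciita, the transactivator of the class, at 27.0 and 29.0 against 30.6, 47.5 and 46.1 CPM. The median lay between 0.20 and 0.40 over 16 alternatives. With the GC trend removed it was 0.28, beside a median of 0.13 over all genes.

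**Figure D4:**
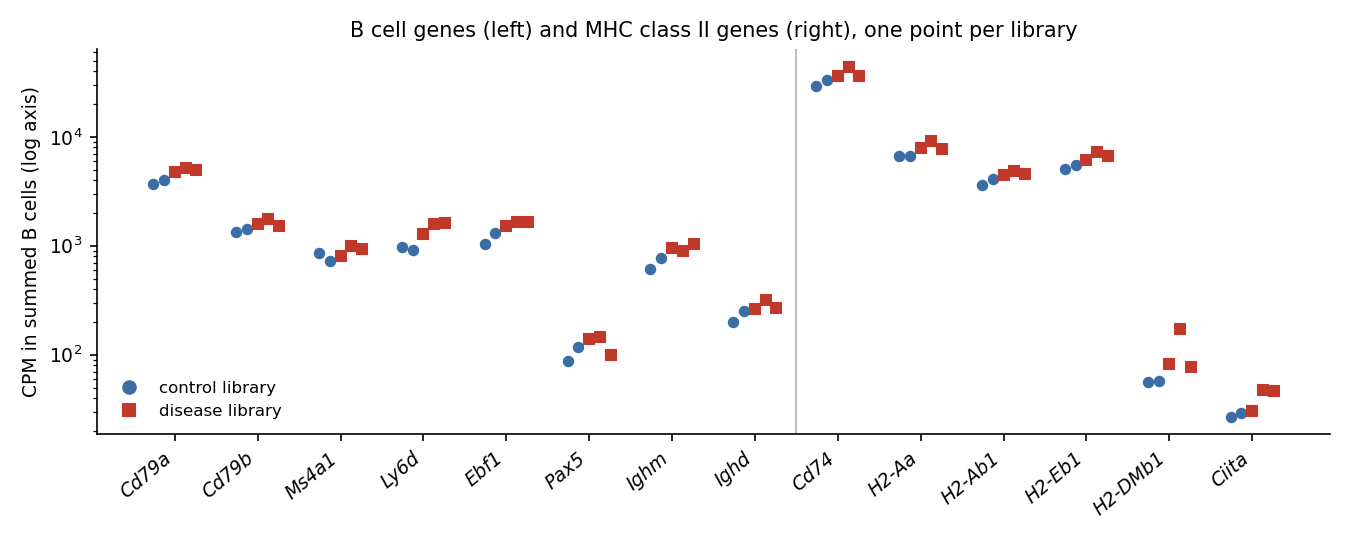
CPM in summed B cells on a log axis, 1 point per library (circles control, squares disease), for 8 B cell genes and 6 MHC class II genes. Most disease points lie slightly above both control points, and of the genes shown that did not choose the cells Ly6d alone passed the test.

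Of 19 tested MHC class I genes, 2 fell and 0 rose, a share near the 8.25% of all genes called lower. H2-D1, a classical class I heavy chain, stood at 2700 and 2350 CPM in controls against 295, 321 and 344 CPM in disease (-2.98, SE 0.15, edgeR adjusted p = 0.000518), and was called in 16 of 16 alternatives. H2-Q4, a non-classical relative, stood at 371 and 313 against 81.5, 102 and 124 CPM (-1.73, SE 0.23, edgeR adjusted p = 0.00743), a call lost without control 1 (edgeR adjusted p = 0.0517), without control 2 (0.0616) or with the GC trend removed (0.068). H2-K1, the other classical chain, stood at 2490 and 2200 against 1290, 401 and 488 CPM (-1.70, SE 0.47, edgeR adjusted p = 0.0752). It was called in 5 of 16 alternatives, among them without disease 3 (edgeR adjusted p = 0.00579) and by DESeq2 (adjusted p = 0.0226). B2m, the light chain that all of them need, stood at 2230 and 1600 against 2290, 2550 and 1950 CPM. These genes are near-identical over long stretches, and reads may have been split or dropped among them. H2-D1 had log2 fold changes of -2.75 in T cells, -2.02 in macrophages and -2.31 in endothelial cells.

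Genes of antigen receptor signalling gave 1 call of 32 tested, against 8.43% of all genes. Plcg2, the phospholipase that turns receptor signals into calcium release, fell from 118 and 134 CPM to 53.5, 64.1 and 60.7 CPM (-1.08, SE 0.23, edgeR adjusted p = 0.0331). The call was lost without any 1 of the 5 libraries (edgeR adjusted p between 0.0554 and 0.256) and with the GC trend removed (-0.43, edgeR adjusted p = 0.385). Lyn, a kinase that both starts and restrains the signal, stood at 339 and 382 against 313, 160 and 140 CPM (edgeR adjusted p = 0.209), and Malt1, a protease on the way to NF-kappa-B, at 138 and 132 against 58.6, 83.9 and 79.6 CPM (edgeR adjusted p = 0.0825). Btk, the kinase mutated in X-linked agammaglobulinaemia, did not pass either and was higher in every disease library, at 111 and 117 against 158, 156 and 180 CPM (edgeR adjusted p = 0.181). The list's median was 0.10, and -0.01 to 0.33 over 16 alternatives.

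Among 26 tested B cell transcription factors, 1 fell and 0 rose, against 8.25% and 0.181% of all genes. Irf8, which supports B cell and macrophage development and is induced by interferon-gamma, fell from 142 and 126 CPM to 30.6, 34.2 and 39.8 CPM (-1.93, SE 0.25, edgeR adjusted p = 0.00666). It was lost in 1 of 16 alternatives, without control 2 (edgeR adjusted p = 0.063). Its log2 fold change was -1.58 in T cells, -0.81 in macrophages and -0.56 in endothelial cells (edgeR adjusted p = 0.191, 0.304 and 0.481). The difference between the changes in B and T cells did not pass for Irf8. Ets1, which holds back plasma cell differentiation, stood at 332 and 465 against 214, 267 and 247 CPM (edgeR adjusted p = 0.0933), Tcf3, which encodes E2A, at 44.2 and 101 against 28.0, 18.8 and 44.0 CPM (edgeR adjusted p = 0.151), and Foxp1 at 464 and 486 against 588, 673 and 597 CPM (edgeR adjusted p = 0.215). The median of the list was 0.13, and 0.02 to 0.35 over 16 alternatives.

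Cytokine receptor genes included 1 call of 26 tested in the list of survival and cytokine receptors, against 8.43% of all genes. Ifnar2, a chain of the type I interferon receptor, fell from 81.0 and 53.8 CPM to 17.8, 15.5 and 12.6 CPM (-2.11, SE 0.34, edgeR adjusted p = 0.0133). The call was lost without control 1 (edgeR adjusted p = 0.0855), control 2 (0.063) or disease 5 (0.0687) and with the GC trend removed (0.0822). In T cells, macrophages and endothelial cells the log2 fold change of Ifnar2 was -2.29, -1.57 and -1.98 (edgeR adjusted p = 0.0122, 0.00479 and 0.0013). Its partner Ifnar1 stood in B cells at 46.7 and 58.0 against 22.9, 22.1 and 12.6 CPM (edgeR adjusted p = 0.0502). The interferon-gamma receptor chains Ifngr1 and Ifngr2 stood at 147 and 75.9 against 61.1, 32.0 and 73.3 CPM and at 46.7 and 84.2 against 7.64, 27.6 and 8.38 CPM (edgeR adjusted p = 0.223 and 0.0715). In T cells, macrophages and endothelial cells Ifngr2 had log2 fold changes of -3.11, -1.94 and -1.81. Ifnar1 had -0.97, -0.68 and -0.89 there, and Ifngr1 0.35, -0.48 and -0.14. In B cells all 4 chains had every disease library below both controls, as did 22.4% of all genes. They were the only genes of the list to do so, Ifngr1 narrowly, at 75.9 against 73.3 CPM. In 7 others every disease library lay above both controls, against 18.7% of all genes. Among these was Il2rg, the common cytokine receptor chain, at 467 and 486 against 588, 653 and 570 CPM (edgeR adjusted p = 0.263). Of the 26 genes 17 were above 0, against 52.4% of all genes. The median was 0.12, and 0.02 to 0.31 over 16 alternatives.

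Targets of interferon were not shifted together beyond the scatter of the libraries. Of 28 tested genes of the interferon-gamma response, 20 had a log2 fold change above 0, against 52.4% of all genes, and the median was 0.26. The 1 call was the fall of Irf8, against 8.43% of all genes. The mean log2 CPM of the 28 was 5.84 and 4.88 in controls against 5.09, 5.57 and 5.32 in disease, all 3 between the controls. The median of this list was 0.74 without control 1, -0.24 without control 2 and -0.03 without disease 4, so its sign rests on single libraries. Socs1, a feedback inhibitor of the pathway, stood at 27.0 and 49.7 against 2.55, 2.21 and 14.7 CPM (edgeR adjusted p = 0.0645). Of 12 tested type I interferon genes 10 were above 0 and 0 were called, against 52.4% and 8.43% of all genes. Their median was 0.33, and 0.19 to 0.66 over 16 alternatives. Bst2, or tetherin, stood at 68.8 and 55.2 against 99.3, 142 and 88.0 CPM (edgeR adjusted p = 0.15).

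Early activation and dissociation stress genes held the most calls of any list of function, with 5 of 30 tested lower and 0 higher, against 8.25% and 0.181% of all genes. Dusp2, a phosphatase of MAP kinases, fell from 263 and 533 CPM to 76.4, 55.2 and 85.9 CPM (-2.48, SE 0.34, edgeR adjusted p = 0.00876), and Dnajb1, a co-chaperone induced by heat, from 228 and 272 to 76.4, 54.1 and 48.2 CPM (-2.09, SE 0.26, edgeR adjusted p = 0.00605). Nfkbia, the inhibitor of NF-kappa-B, fell from 521 and 540 to 196, 79.5 and 62.8 CPM (-2.26, SE 0.44, edgeR adjusted p = 0.0255). Jund, an AP-1 subunit, fell by 1.97 and Nfkbid, an atypical inhibitor of NF-kappa-B, by 1.30 on the log2 scale (edgeR adjusted p = 0.0369 and 0.0487). Dusp2 and Dnajb1 were each lost without control 2 (edgeR adjusted p = 0.0734 and 0.0733), Nfkbia without control 1, control 2 or disease 5 (0.102, 0.18 and 0.0819), Jund without control 2 or any disease library (0.0506 to 0.293) and Nfkbid without control 1, control 2, disease 4 or disease 5 (0.0906 to 0.301). Over all 16 alternatives Nfkbia and Jund were called in 10 each and Nfkbid in 6. In T cells, macrophages and endothelial cells the 5 genes also had log2 fold changes below 0. Dusp2 had -2.16, -1.25 and -2.44, Dnajb1 -2.44, -1.77 and -1.95 and Nfkbia -2.29, -1.74 and -1.75. Jund had -1.45, -1.74 and -1.35 and Nfkbid -1.88, -0.81 and -0.9. Dnajb1 and Jund passed in each of these types (edgeR adjusted p at most 0.0442). Dusp2 did not pass in macrophages, Nfkbia in T cells or macrophages, or Nfkbid in T cells or endothelial cells. The list did not move as 1 block. Ier5 stood at 123 and 279 against 321, 449 and 490 CPM (edgeR adjusted p = 0.144) and Cd69, a marker of recent activation, at 336 and 268 against 494, 557 and 373 CPM (edgeR adjusted p = 0.147). The share of cells with a Cd69 UMI after thinning did not follow this, at 32.5 and 23.2% against 25.5, 33.8 and 21.5% (exact permutation p = 0.8), where the groups overlap. The median of the list was -0.29, and -0.68 to -0.07 over 16 alternatives. It was -0.07 with the GC trend removed, where 2 genes were called lower.

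Genes of contact with T cells and of homing gave no call, against 8.43% of all genes. Of 10 tested genes of costimulation 8 had a log2 fold change above 0.00 at that rounding, against 52.4% of all genes, with a median of 0.36. With library totals alone 7 did. Cd274 stood at 29.5 and 35.9 against 66.2, 54.1 and 62.8 CPM (edgeR adjusted p = 0.118), higher in every disease library, although its thinned share given above overlapped and was lowest in disease 3. Btla, an inhibitory receptor, stood at 46.7 and 51.1 against 71.3, 77.3 and 75.4 CPM (edgeR adjusted p = 0.198), Cd86 at 125 and 144 against 155, 165 and 199 CPM (edgeR adjusted p = 0.376) and Cd83 at 305 and 230 against 237, 34.2 and 113 CPM (edgeR adjusted p = 0.365). Of 22 tested homing genes 18 were above 0, against 52.4% of all genes, with a median of 0.23. With the GC trend removed 14 were, and the median was 0.13, the same as over all genes. Ccr7 stood at 1030 and 889 against 1110, 1240 and 1220 CPM (edgeR adjusted p = 0.271) and Gpr183, an oxysterol receptor that places B cells in follicles, at 49.1 and 49.7 against 73.8, 70.7 and 73.3 CPM (edgeR adjusted p = 0.236). Icam2 stood at 36.8 and 30.4 against 63.7, 51.9 and 62.8 CPM (edgeR adjusted p = 0.141). On the lower side, S1pr4 stood at 179 and 208 against 155, 39.8 and 71.2 CPM and Itgb1, the integrin beta-1 chain, at 73.7 and 38.6 against 15.3, 23.2 and 31.4 CPM (edgeR adjusted p = 0.222 and 0.141).

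Of 13 tested genes of plasma cells and secretion, 1 was called, against 8.43% of all genes. Herpud1, part of the endoplasmic reticulum's degradation machinery, fell from 167 and 171 CPM to 81.5, 36.4 and 44.0 CPM (-1.69, SE 0.35, edgeR adjusted p = 0.0305), a call lost without control 1, control 2, disease 4 or disease 5 (edgeR adjusted p between 0.0513 and 0.215), with the GC trend removed (0.0605) and with equal cells per library (0.153). Manf, another stress protein of that compartment, stood at 160 and 144 against 117, 24.3 and 39.8 CPM (edgeR adjusted p = 0.211). Lists of B-1, marginal zone, follicular, transitional and age-associated B cell genes had 10, 9, 12, 3 and 4 genes tested and 0 calls each, against 8.43% of all genes. Their medians were -0.30, -0.01, 0.26, 0.35 and 0.05. Single libraries set several of these: the B-1 median was 1.26 without control 1 and -1.06 without control 2, the marginal zone median 0.28 without control 2, and the age-associated median 1.09 without control 1 and -0.18 without disease 4. With the GC trend removed the follicular median was 0.11, beside 0.13 over all genes. Cytokine genes made by B cells, clock and glucocorticoid genes and cell cycle genes had 6, 9 and 6 tested, 0 calls and medians of 0.16, 0.40 and 0.45. Over 16 alternatives the clock and glucocorticoid median lay between 0.27 and 0.64 and the cell cycle median between 0.32 and 0.79. The cytokine median was -0.07 without control 2, 0.50 without disease 3 and -1.02 without disease 4.

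Genes whose transcripts start with GC-rich sequence were called lower more often. The chemistry reads from the 5-prime end, and the GC percent of the first 300 bases of each gene's transcript was taken from the GENCODE M21 reference. Across 4942 genes the Spearman correlation of this percent with the log2 fold change in B cells was -0.443, a description over genes that share libraries and are not independent. Genes called lower had a median of 65.3% GC and all others 57.3%. Of 10 nearly equal groups of genes ordered by GC, the group with the lowest GC had 1.39% called lower and that with the highest 22.8%, and the median log2 fold change went from 0.24 to -0.84. The genes of the B cell identity list had a median of 54.3%. H2afj had 71.3, Pgls 73.3, Pfn1 68.5, Jund 76.0 and Dusp2 75.0% GC, while Ndfip1 (59.2%) and Cox5a (59.7%) lay close to the genes not called lower and H2-D1, at 54.3%, at the median of the identity genes. The 5 groups of lower GC held 7, 6, 8, 12 and 27 of the genes called lower. With the GC trend removed in each library, 211 genes were called lower and 40 higher, so calls that were higher made up 15.9% in place of 2.15%.

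**Figure D5:**
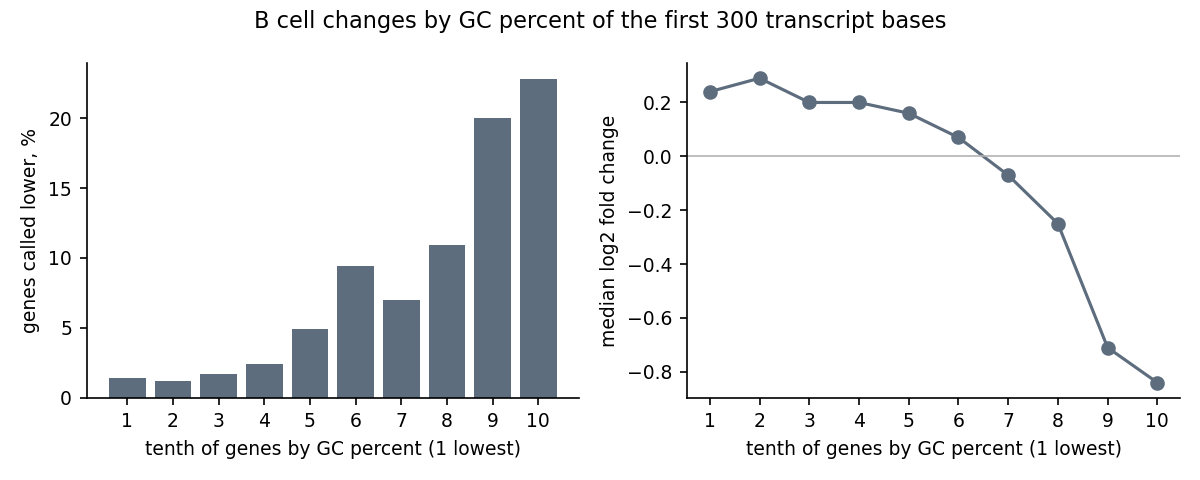
Genes tested in B cells in 10 nearly equal groups by GC percent of their first 300 transcript bases: percent of each group called lower in disease (bars from 0) and median log2 fold change (points). The percent called lower runs from 1.39 in the lowest group to 22.8 in the highest.

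The last comparison was whether the change in B cells differed from that in T cells, the lineage most like them, with the library as a block. Of 6968 genes tested, 3 passed (0.0431%), and 309 had an unadjusted p under 0.05. All 3 changed to a lower value in B cells relative to T cells: Gzma, a granzyme of killer cells (log2 difference of changes -4.57, SE 0.53, edgeR adjusted p = 0.00357), Cxcl1, a chemokine (-3.69, SE 0.43, edgeR adjusted p = 0.00357), and Gsn, or gelsolin, abundant in fibroblasts (-1.75, SE 0.26, edgeR adjusted p = 0.0229). In B cells of control 1, 77 of 84 Gzma, 107 of 125 Cxcl1 and 784 of 1028 Gsn UMIs lay in a single cell each, and in control 2 a called doublet held 26 of 38 Cxcl1 and 266 of 499 Gsn UMIs. These 3 cells are the members with most natural killer or fibroblast UMIs. Without the 8 mixed members 0 genes passed, and the 3 values were -1.17, -1.38 and -0.36. Leaving out libraries gave 16 calls without control 1 and 5 each without control 2 and without disease 3. Cxcl1 passed without any 1 library (edgeR adjusted p at most 0.0376), Gzma was lost without control 1 (edgeR adjusted p = 1), and Gsn without disease 4 (0.133) or disease 5 (0.308). Of the 419 genes called in B cells, 1 passed this test and 32 had an unadjusted p under 0.05, so for most of the genes that fell in B cells no different change in T cells was detected.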

How the data were processed

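Per the labels' protocols, minced hearts were digested enzymatically, pooled and sorted, and libraries were made with the 10x Genomics 5-prime chemistry, version 1.1. The authors deposited raw UMI counts per gene and barcode; the file headers name Cell Ranger 3.1.0. The submitters' processing notes also name Seurat 3 and the builds mm10 and GRCh38; the annotation is not given in the sources used here, and no coordinates are printed. The members and gene lists were chosen with earlier results of these data known.

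Counts were summed over B cells per library and tested with edgeR 4.0.16 (quasi-likelihood test under R 4.3.3, with TMM scaling, the filterByExpr filter and Benjamini-Hochberg adjustment over all genes tested, threshold 0.05). CPM of single genes use TMM library sizes, and summed marker CPM use plain totals. The SE was derived from the fold change and its F statistic. Shares were compared with two-sided exact permutation tests. Named genes were the 10 largest rises and falls among calls with a mean of at least 5 log2 CPM whose groups did not overlap, antigen receptor segments aside, and any gene of the fixed lists. T cells had at least 2 Cd3 UMIs, macrophages at least 5 C1q and endothelial cells at least 2 Cdh5, each without the other types' genes. Leukocytes had at least 2 UMIs over Ptprc, Coro1a, Laptm5 and Cd52 and 0 of Cdh5 and Pdgfra. Leading genes used a pseudocount of 5 CPM. Doublets were called with Scrublet (scanpy 1.11.5) and kept in the main analysis. DESeq2 1.42.0 was an alternative. The scripts were tested on simulated data. A few listed genes are not reported here.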

Additional observations from a re-analysis of the deposited data

Results flagged for a closer look

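Changes that differed between B and T cells by the edgeR interaction test were those of Gzma (-4.57 on the log2 scale), Cxcl1 (-3.69) and Gsn (-1.75). With the 8 members rich in another type's markers left out the values were -1.17, -1.38 and -0.36, with edgeR adjusted p of 0.994, 0.994 and 0.995.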

How the results depend on the processing

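No paired analysis was possible because the groups share no replicate numbers. Leaving out 1 library turned the difference (disease minus control) in the share of cells (-1.66 to 1.64 percentage points), in the share of leukocytes (-16.1 to 6.39), in the log2 ratio to T cells (-2.8 to 0.873), in the lambda share (-8.91 to 3.9) and in the switched share (-0.363 to 0.491). Besides controls, disease libraries did so: share of cells without 3 (0.185) or 5 (0.249), lambda without 3 (1.74), switched without 3 (-0.0326) or 4 (-0.0849). Leaving out doublets turned the share of cells to 0.0295, and calling light chains from variable segments, an alternative chosen after seeing the data, turned the lambda share to 0.186. The difference in the share with a Cd69 UMI turned to 6.23 at 500 UMIs and lay between -5.5 and 3.75 without 1 library, turning to 1.83 without disease 5; without thinning those of Ccr7 and Cr2 turned to -1.33 and -2. Genes at the smallest p numbered 2 at 500 UMIs and 3 without thinning.

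Genes called numbered 960 (178 higher, 782 lower) with every gene of at least 1 count, where calls that were higher made up 18.5%, 209 (1, 208) under the stricter B cell rule, 255 (1, 254) with equal cells per library, 251 (40, 211) with the GC trend removed, and 52 to 428 (0 to 14 higher, 52 to 420 lower) without 1 library. Higher calls numbered 4 with library totals alone, 14 without immunoglobulin genes, 14 without cells of at least 3 Jchain UMIs and 4 without the mixed members, the last 2 chosen after seeing the data. DESeq2 called 9 higher and 367 lower. The main analysis called 419 genes, 8.43% of those tested. Of listed genes 18 were called, 48 with every gene of at least 1 count, 11 with equal cells, 11 with the GC trend removed and 8 to 20 without 1 library. The class difference gave 1 call with a mean of at least 5 log2 CPM in both classes, 0 without the mixed members and 2 to 16 without 1 library. Scaling by library totals alone moved the median log2 fold change of all genes from 0.04 to -0.07, and the B cell identity list without the genes of the rule stood 0.29 above it. The cause of these shifts was not tested. No gene named with a fold change reversed its sign in these alternatives, and 113 single-gene calls were lost and 45 gained over them.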
